A study of Mus musculus with 6 samples.

Results

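The genes described here are the NF-kB subunits, their inhibitors and the kinases, adaptors and ubiquitin-editing proteins that act upstream of them. Members were the genes of a list of 32 symbols to which the array's annotation assigns at least 1 probe set of their own, and 1 probe set stood for each gene, the brightest on average across all 6 arrays. Of the 32, 28 had such a probe set, out of 18193 genes in all, and the other 4 were not analysed here. All 28 passed the filter on dim genes, a mean log2 signal of 1.27, and were tested among 13194 genes.

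P14 cells are cytotoxic T cells from C57Bl/6 mice whose transgenic receptor recognises the viral peptide gp33. Spleen cells were activated with gp33 for 24 h and infected with a retrovirus carrying GFP-HDAC7 with its phosphorylation sites disabled, a class IIa histone deacetylase that, in this form, stays in the nucleus. Sorting of the infected cultures gave 3 GFP positive samples, which express the mutant, and 3 GFP negative samples, labelled control, and each was hybridised to 1 Affymetrix mouse expression array. Both groups share the strain, the receptor, the peptide and exposure to virus. Cells with GFP alone or with unmodified HDAC7 were not analysed here, so the mutant and the state of being infected cannot be told apart. The labels call the 3 samples of a group biological replicates but do not name the animals or cultures behind them, so the spread that p-values measure here is that among these samples and may be technical.

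NF-kB transcription factors are dimers of Rel-family proteins that inhibitors of the IkB family hold in the cytoplasm. In T cells the antigen receptor, CD28 and receptors of the TNF family activate the IKK complex, which phosphorylates the inhibitors and marks them for destruction, and the freed dimers enter the nucleus. In a second, slower route the kinase NIK drives processing of the Nfkb2 product, while TRAF proteins and the cIAP ubiquitin ligases keep NIK low. Many genes of the pathway, among them those of several inhibitors, are themselves targets of NF-kB, which makes the pathway a set of feedback loops.

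The promoters of the members were searched for the NF-kB consensus site, a motif of 10 bases, on both strands, in the RefSeq table of promoters (mouse build GRCm38.p6), where each window runs from 250 bases before to 50 bases after a start. Of the 28 members, 24 had a promoter there, and 11 of these 24 (45.8%) held at least 1 match, against 5.14% of all 27025 genes of the table. Among members with 1 promoter listed the share was 6 of 17 (35.3%), against 4.26% of all such genes. Of the members with a promoter that rose in GFP positive cells by the test described with the counts, 7 of 16 held a match, against 4 of 7 of those that did not pass. Of the 10609 genes tested that have a promoter in the table, 6.22% held one. The share was 7.16% of those that rose, 5.07% of those that fell and 6.16% of the rest. A match is a description of the letters and shows no binding. Of the 28 members, 12 are labelled known NF-kB targets, so the members' high share of matches is no independent support. The following stretches before the start hold matches of 4 members that rose (Tnip1, Nfkbie, Cyld, Nfkbid) and of 3 that did not pass (Rel, Nfkbia, Nfkb2). Bcl3, Tax1bp1 and Tnfaip3, which rose, and Tank, which did not pass, also held a match and are not shown. Capitals mark the matches, and matches on opposite strands or shifted by a base run together.
Tnip1, chr11:54962942-54963043, minus strand: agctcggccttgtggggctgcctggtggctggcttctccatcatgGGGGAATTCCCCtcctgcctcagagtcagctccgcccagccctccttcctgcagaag
Nfkbie, chr17:45555549-45555648, plus strand: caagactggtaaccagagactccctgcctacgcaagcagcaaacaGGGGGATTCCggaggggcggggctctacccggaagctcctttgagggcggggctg
Cyld, chr8:88696828-88696927, plus strand: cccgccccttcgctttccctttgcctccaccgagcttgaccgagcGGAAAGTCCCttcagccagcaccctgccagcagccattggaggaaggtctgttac
Nfkbid, chr7:30422156-30422279, plus strand: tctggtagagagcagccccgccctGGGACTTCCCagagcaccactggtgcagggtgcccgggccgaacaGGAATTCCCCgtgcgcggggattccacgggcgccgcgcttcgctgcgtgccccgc
Rel, chr11:23771006-23771106, minus strand: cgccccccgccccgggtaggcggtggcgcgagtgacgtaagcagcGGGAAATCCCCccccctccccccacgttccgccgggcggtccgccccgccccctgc
Nfkbia, chr12:55492648-55492721, minus strand: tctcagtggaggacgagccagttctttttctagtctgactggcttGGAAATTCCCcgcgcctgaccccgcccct
Nfkb2, chr19:46304653-46304736, plus strand: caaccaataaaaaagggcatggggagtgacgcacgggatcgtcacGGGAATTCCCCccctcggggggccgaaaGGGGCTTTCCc

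The match nearest to a start among these ended 2 bases before that of Nfkb2, and that of Nfkbia ended 20 bases before its start. The match of Tnip1 began 58 bases before its start, and that of Cyld began 155 bases before.

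Most of the 28 members were higher in GFP positive cells. By limma with Benjamini-Hochberg adjustment over all 13194 genes and a threshold of 0.05, 17 of 28 members rose, 1 fell and 10 did not pass. Over all genes tested 42.1% passed, 24.6% higher and 17.5% lower, where the members gave 64.3% in either direction. The median change of the members was 0.44 on the log2 scale, against -0.02 for all genes tested, and 19 members lay above the upper quartile of all genes (0.29). In 22 members every GFP positive sample lay above every GFP negative one and in 2 every one lay below, where 53.8% of all genes had groups that did not overlap (29.7% above and 24.2% below). In 3 members, Traf1, Nfkbie and Tnip1, the change was called and at least 2-fold, all of them higher, against 5.33% of all genes (3.69% higher and 1.64% lower). In such bulk samples, fewer cells of a type and less RNA per cell cannot be told apart.

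The median log2 signal of an array lay between 1.62 and 1.72, a narrow range, but the groups did not overlap in it. Arrays of GFP negative samples had medians of 1.69 to 1.72, and those of GFP positive samples were lower, 1.62 to 1.66. TrpnX control probe sets, which are directed at bacterial transcripts, averaged 0.64 and 0.66 in the groups. A pair of samples stood apart on other controls, GFP positive 3 on hybridisation controls (8.19 against 7.74 to 7.90) and GFP negative 1 on 18S ribosomal RNA (9.98 against 8.74 to 9.49). Without both of them 13 of 28 members rose and 1 fell, where 15.7% of all genes rose and 9.48% fell. The Hdac7 probe set that represents the gene read 4.81 to 4.86 in GFP negative and 8.09 to 8.18 in GFP positive samples. A second one read 6.65 to 6.81 in GFP negative and 6.17 to 6.21 in GFP positive samples, a change of -0.55. The second was the brighter in GFP negative samples, so the first represents the gene through its level in GFP positive ones. Markers of cytotoxic T cells had a mean log2 signal of 9.78 to 9.95 in GFP negative and 10.17 to 10.33 in GFP positive samples. By that mean they moved with the members. Their summed linear signal was 11156.1 to 12456.6 in GFP negative and 10691.7 to 11584.1 in GFP positive samples, and so overlapped. Of 7 tested, 4 rose, Cd8a by 1.24, Cd8b1 by 1.15, Cd3g by 0.67 and Cd3e by 0.55. Gzmb, the gene of granzyme B, fell by 0.998 on the log2 scale, and Cd3d and Thy1 changed by -0.05 and 0.22 without passing. Of 5 dendritic cell markers, 4 were tested and 3 of them fell from low levels. The summed linear signal of these 5 went from 19.8 to 19.9 in GFP negative samples to 14.9 to 17.6 in GFP positive ones, and none of them was at 0. The summed signal of the B cell markers was 31.7 to 42.4 in GFP negative and 30.3 to 36.7 in GFP positive samples, and that of the myeloid markers was 19.7 to 22.5 and 22.0 to 23.9. For the CD4 T cell markers it was 12.2 to 13.2 and 11.4 to 11.9, groups that did not overlap. Of these 3 lists, 4 of 6, 3 of 6 and 2 of 3 markers were tested, and 1 of them was called, the myeloid marker Cd68, which rose by 1.11. None was at 0, and no marker of NK or erythroid cells passed the dim filter. The part of these cell types in the members' changes was not tested.

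**Figure D1:**
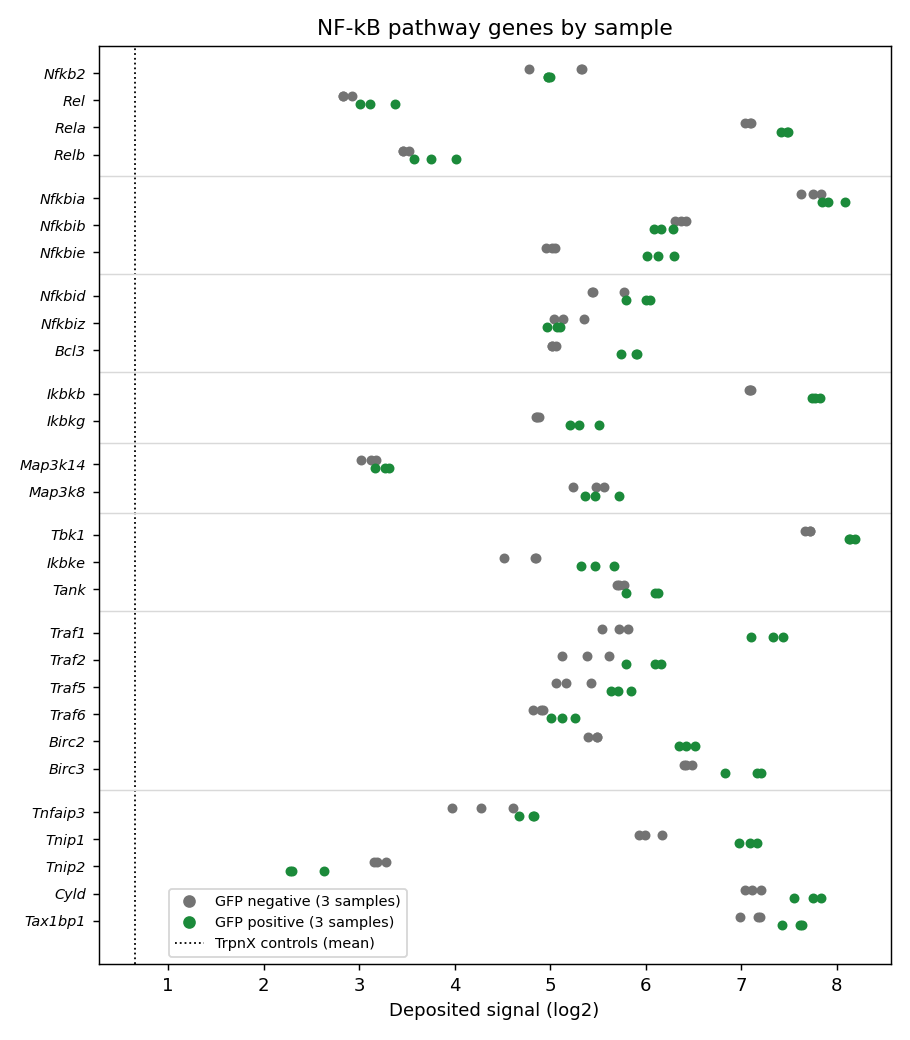
Deposited log2 signal of each of the 28 genes in each sample (horizontal axis), grouped by role, with 3 GFP negative samples in grey, 3 GFP positive samples in green and the mean of the TrpnX controls as a dotted line. In 22 genes the green points all lie to the right of the grey ones, and in Nfkbib and Tnip2 all lie to the left.

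Among the DNA-binding subunits, the RelA gene rose by a small amount and the others did not pass. Rela encodes p65, the subunit with the main transactivation domain of the classical route. Its log2 signal was 7.10, 7.04 and 7.09 in GFP negative samples 1 to 3 and 7.49, 7.47 and 7.41 in GFP positive samples 1 to 3. The groups were tight and apart, and the rise was 0.38 ± 0.07 (SE), or 1.30-fold, with a limma adjusted p of 0.0043.

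Rel, which encodes c-Rel, the subunit linked to T cell activation and interleukin 2 transcription, read 2.83, 2.83 and 2.93 against 3.01, 3.11 and 3.37. Its GFP positive samples all lay above the others, but the change of 0.30 (95% interval 0.05 to 0.54) had a limma adjusted p of 0.0529. Relb, whose product pairs with the processed Nfkb2 protein in the slower route, read 3.46, 3.46 and 3.52 against 3.58, 3.75 and 4.01. That change, 0.30, also missed the threshold (limma adjusted p = 0.070), with the highest value in GFP positive 3. With the replicate number as a block, limma adjusted p became 0.0330 for Rel and 0.0487 for Relb. Without GFP positive 1 both passed as well, with changes of 0.38 and 0.40, and Rel passed when genes under the 60th percentile of signal were left out (limma adjusted p = 0.0413).

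Nfkb2, the gene of the precursor p100 and of p52, overlapped between the groups. GFP negative samples read 5.33, 4.78 and 5.32, and GFP positive samples 4.97, 4.98 and 5.001. GFP negative 2 was low, and without it the change went from -0.16 to -0.34 with a limma adjusted p of 0.022, a call that rests on leaving that sample out. A second Nfkb2 probe set changed by -0.15 and did not pass.

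The 3 classical inhibitors, which hold NF-kB in the cytoplasm until they are degraded, did not move alike. Nfkbie, encoding IkB epsilon, went from 5.02, 4.95 and 5.05 to 6.13, 6.01 and 6.29. Every GFP positive sample was higher by nearly a log2 unit or more, a rise of 1.13 ± 0.09 (SE), or 2.19-fold (limma adjusted p = 1.15e-04). A second Nfkbie probe set rose by 1.37. Adding 32 to the linear signal and taking logs again, which damps dim signals, gave a rise of 0.68 that still passed.

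Nfkbia, encoding IkB alpha, the inhibitor that is resynthesised fastest, read 7.84, 7.62 and 7.75 against 7.90, 7.84 and 8.09. The groups nearly touched, and its change of 0.21 (95% interval -0.02 to 0.43) had a limma adjusted p of 0.12. Its other 4 probe sets changed by 0.18 to 0.41, 2 of them past the threshold over all 27022 probe sets tested, of which 32.5% passed. The mean over its probe sets gave 0.32 with a limma adjusted p of 0.044.

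Nfkbib, encoding IkB beta, read 6.37, 6.31 and 6.42 against 6.09, 6.16 and 6.29. All GFP positive samples were lower, and the change of -0.19 did not pass (limma adjusted p = 0.11), although it did after quantile normalization (-0.29, limma adjusted p = 0.0187) and after centring each array on its median (-0.30). The difference in signal between Nfkbie and Nfkbia was -2.81 to -2.67 in GFP negative and -1.83 to -1.77 in GFP positive samples, so their changes differed by 0.93, with an exact permutation p of 0.1 (two-sided). That is the smallest p that 3 samples against 3 allow, and it remained 0.1 after adjustment over the 3 gene pairs compared in this way, which were chosen after their values were seen.

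Nuclear IkB proteins bind NF-kB dimers on DNA and act as coregulators. Bcl3, which binds dimers such as those of p52 and can turn them into activators, read 5.06, 5.01 and 5.02 against 5.74, 5.90 and 5.91. The rise was 0.82 ± 0.08 (SE), or 1.77-fold (limma adjusted p = 2.19e-04), and 0.47 with 32 added in linear units. Nfkbid, encoding IkB-NS, which supports c-Rel dependent transcription in T cells, read 5.44, 5.45 and 5.77 against 5.79, 6.00 and 6.04. The highest control sample nearly reached the lowest GFP positive one. Its rise of 0.39 (limma adjusted p = 0.030) did not pass when GFP negative 1, GFP negative 2, GFP positive 2 or GFP positive 3 was left out (adjusted p 0.0874 to 0.0974), and with either rescaling of the arrays (0.26 and 0.28). With 32 added in linear units it was 0.25, still past the threshold. Nfkbiz, encoding IkB zeta, overlapped between groups on its brightest probe set (5.14, 5.04 and 5.36 against 4.96, 5.10 and 5.08). Its change of -0.13 did not pass, a dimmer probe set fell by 0.42 and another changed by 0.27, so its probe sets disagreed in sign. After quantile normalization the brightest one fell by 0.30 (limma adjusted p = 0.0477).

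Genes of the IKK complex rose on their brightest probe sets. Ikbkb, the gene of the catalytic subunit IKK beta, which phosphorylates the classical inhibitors, read 7.08, 7.10 and 7.09 against 7.74, 7.77 and 7.82. Both groups were tight, and the rise was 0.69 ± 0.07 (SE), or 1.61-fold (limma adjusted p = 2.79e-04). Of 4 dimmer Ikbkb probe sets, 1 rose by 0.75 and the other 3 changed by -0.10 to 0.19 without passing. The mean over the gene's probe sets was 0.29 higher and missed the threshold (limma adjusted p = 0.0505).

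Ikbkg, which encodes the regulatory subunit NEMO that binds ubiquitin chains, read 4.85, 4.88 and 4.86 against 5.21, 5.30 and 5.51. The rise of 0.47 ± 0.09 (SE, limma adjusted p = 0.0050) was 0.25 both with 32 added in linear units and as the mean of the probe sets, past the threshold in each case. Of 5 other Ikbkg probe sets, 2 rose, by 0.34 and 0.56, and 3 did not pass (-0.08 to 0.26).

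The MAP3 kinases above IKK showed no change that passed. Map3k14, encoding NIK, the kinase that starts the slower route, read 3.01, 3.18 and 3.12 against 3.31, 3.27 and 3.17, a change of 0.15 (95% interval -0.05 to 0.34) with overlapping groups. Map3k8, encoding TPL2, a kinase that also activates the ERK pathway, read 5.48, 5.24 and 5.56 against 5.36, 5.72 and 5.47. Its change of 0.09 had an interval of -0.19 to 0.38, and its sign turned with quantile normalization and median centring and without GFP negative 2 or GFP positive 2 (changes of -0.05, -0.02, -0.003 and -0.01).

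The IKK-related kinases, which phosphorylate interferon regulatory factors as well as NF-kB proteins, were both higher. Tbk1 read 7.72, 7.67 and 7.71 against 8.13, 8.18 and 8.13. This rise of 0.45 ± 0.07 (SE, limma adjusted p = 0.0019) was shared by a second probe set (0.30). Ikbke, encoding IKK epsilon, read 4.51, 4.85 and 4.84 against 5.32, 5.47 and 5.67. Control sample 1 was the lowest, the groups stayed well apart, and the rise was 0.75 ± 0.13 (SE), 1.69-fold (limma adjusted p = 0.0023), or 0.39 with 32 added in linear units. Tank, encoding an adaptor of both kinases that binds TRAF proteins, read 5.72, 5.77 and 5.70 against 6.09, 6.13 and 5.79. GFP positive 3 was close to the controls. The change of 0.27 did not pass (limma adjusted p = 0.068), and without GFP positive 3 it was 0.38 (limma adjusted p = 0.0129). It also passed with a robust prior (0.0438).

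TRAF adaptors and cIAP ubiquitin ligases couple TNF-family receptors to IKK, and 5 of the 6 measured rose, against 24.6% of all genes tested. Traf1, an adaptor without a RING domain that is induced by NF-kB and binds TRAF2, had the largest change of all members. Its log2 signal was 5.72, 5.54 and 5.82 in GFP negative and 7.10, 7.33 and 7.44 in GFP positive samples. The groups lay more than a log2 unit apart, with a rise of 1.60 ± 0.12 (SE), or 3.03-fold (limma adjusted p = 7.4e-05), and the other Traf1 probe set rose by 2.16.

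Traf2, which recruits the cIAPs, read 5.12, 5.39 and 5.61 against 5.79, 6.16 and 6.10. Samples scattered within both groups without meeting. The rise of 0.64 ± 0.15 (SE, limma adjusted p = 0.0093) was 0.40 with 32 added in linear units. Traf5, a close relative that works with Traf2 downstream of receptors such as CD27 and OX40, read 5.06, 5.16 and 5.43 against 5.64, 5.71 and 5.84, a rise of 0.52 ± 0.11 (SE, limma adjusted p = 0.0078) that was 0.30 with 32 added. Without GFP negative 1 and GFP positive 3 together the changes of Traf2 and Traf5 were 0.48 and 0.38, and neither passed (limma adjusted p = 0.084 and 0.077).

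Traf6, the ubiquitin ligase of the interleukin 1 and Toll-like receptor routes, read 4.82, 4.90 and 4.93 against 5.004, 5.26 and 5.12. Its groups did not overlap, but the change of 0.25 missed the threshold (limma adjusted p = 0.060), and 2 other probe sets changed by -0.25 and 0.07. With the replicate block its limma adjusted p was 0.0498, with genes under the 60th percentile of signal left out 0.0438, with 32 added in linear units 0.0477 (change 0.12), and without GFP positive 1 0.0320.

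The cIAP genes both rose. Birc2, encoding cIAP1, read 5.39, 5.49 and 5.49 against 6.42, 6.35 and 6.51. The group means were nearly a log2 unit apart, with a rise of 0.97 ± 0.08 (SE), or 1.96-fold (limma adjusted p = 1.19e-04), and of 0.64 with 32 added in linear units. Birc3, encoding cIAP2 and itself a known NF-kB target, read 6.40, 6.42 and 6.48 against 6.83, 7.20 and 7.17. GFP positive 1 was the lowest of its group, and the rise was 0.64 ± 0.11 (SE), or 1.55-fold (limma adjusted p = 0.0027).

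Negative regulators that edit or bind ubiquitin chains all passed the test, 4 higher and 1 lower. Over all genes tested 42.1% passed, 24.6% higher and 17.5% lower. Tnip1, encoding ABIN1, which binds A20 and NEMO and restrains the pathway, read 5.99, 5.93 and 6.17 against 6.98, 7.16 and 7.09. The rise was 1.05 ± 0.10 (SE), or 2.07-fold (limma adjusted p = 1.57e-04). Tnip2, which encodes the related ABIN2, a partner of TPL2, went the other way, at 3.16, 3.19 and 3.28 against 2.28, 2.29 and 2.63. It was the one member that fell, by 0.81 on the log2 scale (SE 0.11, limma adjusted p = 8.6e-04). Tnip2 is dim, and with 32 added in linear units it fell by 0.14, still past the threshold. Per sample, Tnip1 minus Tnip2 was 2.74 to 2.89 in GFP negative and 4.46 to 4.87 in GFP positive samples. The difference between their changes was 1.86 (exact permutation p = 0.1, two-sided, the smallest that can be reached). The pair was chosen after its values were seen, so this p is no independent support.

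Cyld, the gene of a deubiquitinase that removes linear and K63-linked chains, read 7.04, 7.21 and 7.11 against 7.55, 7.75 and 7.83. All GFP positive samples were higher, with a rise of 0.59 ± 0.10 (SE, limma adjusted p = 0.0021). Among its 3 other probe sets past the filter, 2 rose, by 0.60 and 0.72, and the dimmest changed by -0.03. Tax1bp1, which encodes an adaptor that brings A20 to its substrates, read 7.19, 7.18 and 6.98 against 7.42, 7.62 and 7.63, a rise of 0.44 ± 0.10 (SE, limma adjusted p = 0.0082). Its 2 other probe sets changed by 0.12 and -0.14, and the mean over the 3 was 0.14 higher and did not pass (limma adjusted p = 0.23). Without GFP negative 1 and GFP positive 3 together the rise was 0.44 with a limma adjusted p of 0.054.

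Tnfaip3, encoding A20, the feedback inhibitor that trims ubiquitin chains from signalling complexes, read 3.97, 4.61 and 4.27 against 4.82, 4.83 and 4.68. Its control samples were scattered, and the highest almost reached the lowest GFP positive sample. The change of 0.49 ± 0.15 (SE) had a limma adjusted p of 0.032 and was lost in 10 of 16 alternatives, more than for any other member. These were quantile normalization (0.33), median centring (0.38), 32 added in linear units (0.20), the mean of its probe sets (0.15), each single sample left out other than GFP negative 2 (0.34 to 0.54), and GFP negative 1 and GFP positive 3 left out together (0.38).

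**Figure D2:**
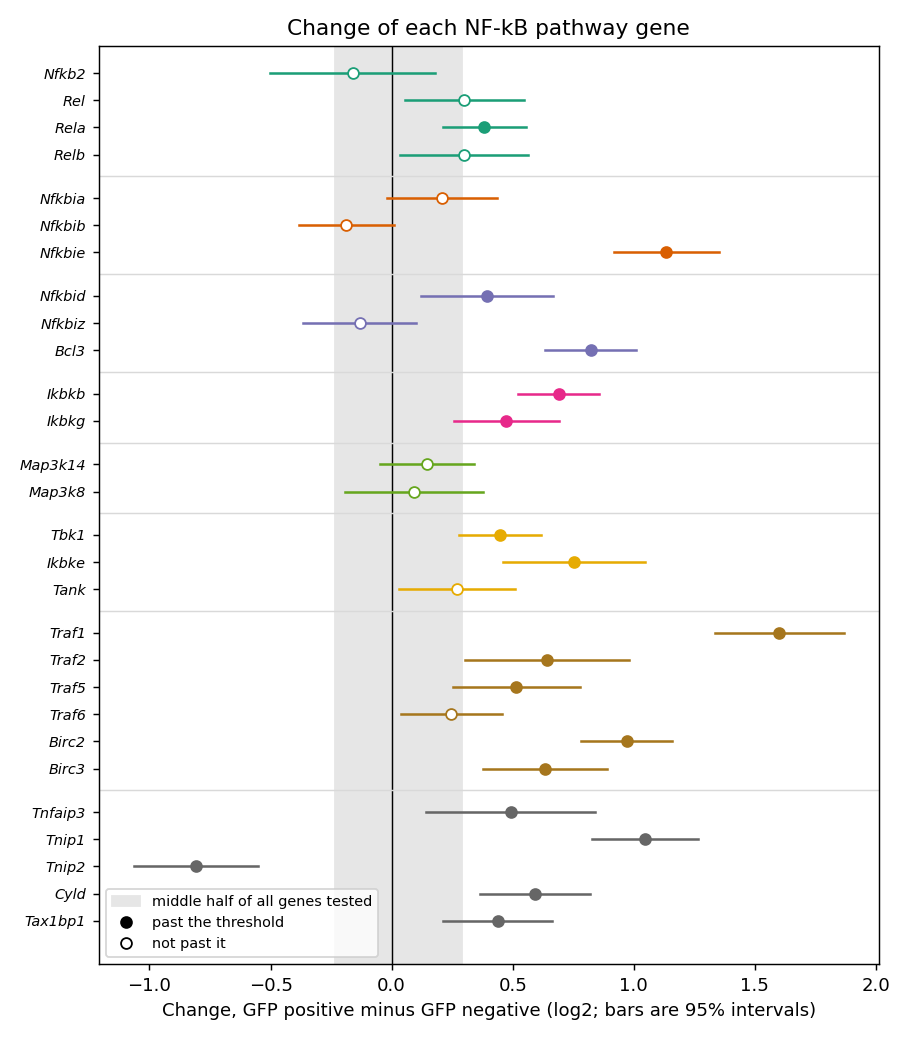
Change of each of the 28 genes in log2 units, GFP positive minus GFP negative, with 95% intervals from limma, coloured and grouped by role. Filled points passed the threshold, and the grey band spans the quartiles of all genes tested, -0.23 to 0.29. Traf1 stands at 1.60 and Tnip2, the one member that fell, at -0.81.

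The members were also divided by whether the gene is itself a known NF-kB target. Of 12 targets tested, 7 rose and 0 fell by limma, with a median change of 0.54 and 10 with GFP positive samples all above. Of the 16 others, 10 rose and 1 fell, with a median of 0.42 and 12 with GFP positive samples all above. The shares called were 58.3% of the targets and 68.8% of the others, against 42.1% of all genes tested (24.6% higher and 17.5% lower). In 29.7% of all genes every GFP positive sample lay above. The 3 members that changed at least 2-fold, Traf1, Nfkbie and Tnip1, are all among the targets, and the difference between these divisions was not tested. No source is given here for the target labels, and the lists were chosen with earlier results of these data known. The overlap is therefore no independent support.

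Other probe sets of the same genes bore on 14 members, with 29 past the dim filter. For members that passed, 18 such probe sets were measured. Of these, 11 changed in the same direction as the brightest one, 8 of them past the threshold. The rest changed the other way, and 0 of them passed. Over all 27022 probe sets tested, 32.5% passed. Traf1, Nfkbie, Tbk1 and Cyld had a second probe set that rose too, as did Ikbkb and Ikbkg alongside others that did not pass. Members with 1 probe set, such as Rela, Bcl3, Ikbke, Traf2, Birc2, Tnip1 and Tnip2, have no such check.

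**Figure D3:**
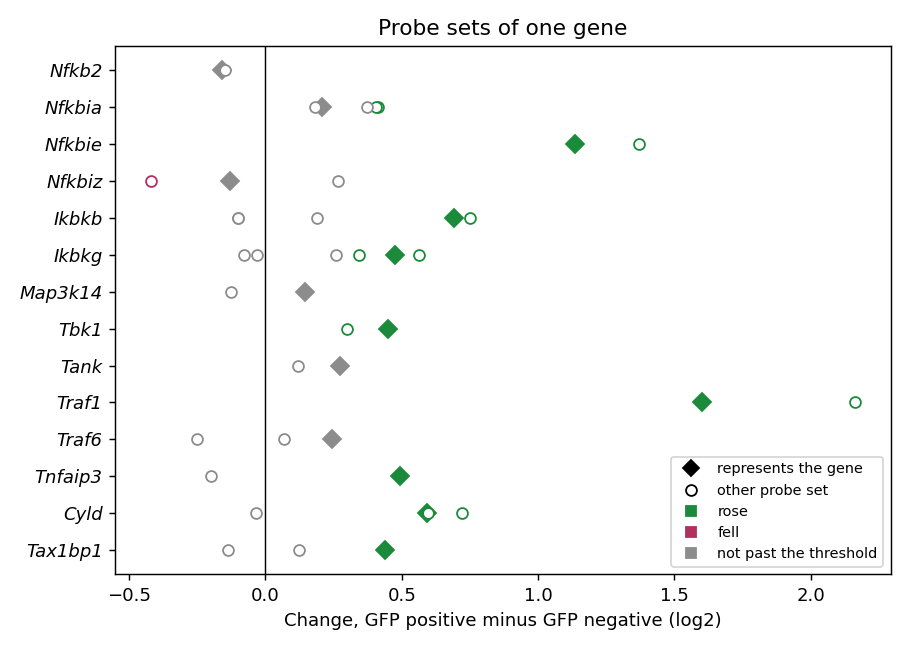
Change of every probe set past the dim filter in log2 units for the 14 genes that have more than 1, with the one that represents the gene as a filled diamond and the others as open circles, coloured by call over all probe sets tested. Traf1 and Nfkbie lie far to the right on all their probe sets, while those of Ikbkb and Ikbkg spread from near 0 to 0.75 and 0.56.

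Among the genes that link the antigen receptor to IKK, Malt1 fell and Bcl10 rose. The protein encoded by Bcl10 and the paracaspase encoded by Malt1 form one complex that activates IKK after receptor engagement. Malt1 read 5.80, 5.72 and 5.31 in GFP negative and 3.74, 3.35 and 3.48 in GFP positive samples, and so was 4.25-fold lower, with a change of -2.09 ± 0.15 (SE, limma adjusted p = 7.4e-05). Its groups lay well apart. A second Malt1 probe set changed by -1.04, and with 32 added in linear units the first fell by 0.90.

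Bcl10 rose, from 6.80, 6.70 and 6.84 to 7.47, 7.42 and 7.41, by 0.65 ± 0.08 (SE, limma adjusted p = 4.3e-04). The difference between the signals of Bcl10 and Malt1 was 0.98 to 1.53 in GFP negative and 3.73 to 4.07 in GFP positive samples. Their changes thus differed by 2.74 (exact permutation p = 0.1, two-sided, the smallest possible). This pair, too, was chosen after its values were seen, so that p is no independent support. Of 7 genes tested in this list, 2 rose, 2 fell and 3 did not pass, where 24.6% of all genes rose and 17.5% fell. Tab2, an adaptor of the kinase TAK1, rose by 0.54, and Prkcq, the gene of protein kinase C theta, fell by 0.25, a call lost without any 1 of the samples other than GFP positive 1. Map3k7, the gene of TAK1 itself, changed by 0.04. Tab3, another TAK1 adaptor, changed by 0.34 and passed with the replicate block (limma adjusted p = 0.0484) and in 4 other alternatives.

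Of 8 genes tested from the machinery for linear and K63-linked ubiquitin chains, 3 rose and 2 fell. Over all genes 24.6% rose and 17.5% fell. Rnf31, the catalytic subunit of the linear ubiquitin ligase, rose by 0.68 ± 0.11 (SE, limma adjusted p = 0.0018). Sharpin, another subunit, rose by 0.23, a call lost in 11 of 16 alternatives, the replicate block among them (limma adjusted p = 0.0510), and Rbck1, the remaining subunit, changed by 0.23 without passing. Otulin, the deubiquitinase specific for linear chains, fell by 0.50 ± 0.09 (SE, limma adjusted p = 0.0028). Of the cofactors that direct the K63-specific enzyme, Ube2v1 rose by 0.30 and Ube2v2 fell by 0.66. The call of Ube2v1 was lost with median centring and when any 1 of GFP negative 1, GFP negative 2, GFP positive 2 and GFP positive 3 was left out. With both calls lost, as in each of those cases, 1 gene of this list rose. The ligase and conjugation genes that lead to inhibitor degradation gave 0 rises and 1 fall among 7 tested by limma, or 14.3% called against 42.1% of all genes. The fall was that of Cul1, the scaffold of the SCF ligase (-0.35, a call lost without GFP negative 1 and GFP positive 3 together). Fbxw11, a substrate receptor of that ligase, changed by 0.17 and did pass with 32 added in linear units, as the mean of its probe sets and with a robust prior. Its other probe sets changed by 0.14 to 0.68. The list then gave 2 rises with 32 added and 1 in each of the other cases. Skp1 changed by 0.01.

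Of 14 receptors and adaptors that feed the pathway, 3 were higher and 5 lower, where 24.6% of all genes were higher and 17.5% lower. With the replicate block 5 were higher and 6 lower, where 25.5% of all genes were higher and 18.8% lower. The falls numbered 2 with 32 added in linear units or with genes under the 60th percentile left out, and 3 without any 1 sample other than GFP positive 1. Without GFP negative 1 and GFP positive 3 together 1 was higher and 3 were lower, where 15.7% of all genes were higher and 9.48% lower. Tnfrsf1a, the gene of TNF receptor 1, rose by 0.78 ± 0.09 (SE, limma adjusted p = 4.2e-04) and Cd27 by 0.55, the latter not past the threshold without GFP negative 1 and GFP positive 3 together. The costimulatory receptor gene Cd28 fell by 1.09 ± 0.17 (SE, limma adjusted p = 0.0017), Il18r1, the gene of an interleukin 18 receptor chain, fell by 1.78, and the dim Tnfrsf25 fell by 0.63 (-0.08 and not past the threshold with 32 added in linear units). Tnfrsf4 and Tnfrsf9, encoding OX40 and 4-1BB, overlapped between the groups, with changes of -0.76 and -0.37 that did not pass. With the replicate block both fell (limma adjusted p = 0.00145 and 0.0108). Myd88 and Tnfrsf18, with changes of 0.25 and 0.24, also passed with the block (limma adjusted p = 0.0387 and 0.0409), Myd88 in 5 other alternatives too. The calls of Cd40 (-0.30), Ltbr (-0.37) and Tradd (0.29) were lost in 9, 10 and 9 of 16 alternatives, and Ltbr had a limma adjusted p of 0.0705 with the block.

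Known target genes outside the member list did not share one direction. Limma called 7 of 23 higher and 7 lower, and 9 missed the threshold, with a median change of 0.13. Gadd45b, a stress-response gene that limits JNK signalling, rose by 0.96, or 1.94-fold (limma adjusted p = 3.3e-04). Il2ra, the gene of the alpha chain of the interleukin 2 receptor, fell by 2.31 and Myc fell by 1.12. Sod2, the gene of mitochondrial superoxide dismutase, fell by 0.60, and the chemokine gene Ccl3 fell by 1.58 (-0.19 with 32 added in linear units). Tnf and Lta, the genes of tumour necrosis factor and lymphotoxin alpha, changed by 0.36 and -0.43 without passing. Tnf did pass without GFP negative 3 or GFP positive 1, and Lta with median centring or without GFP negative 2, and over the alternatives Lta changed by -0.59 to -0.22. Over all 59 genes tested from these lists, 15 rose and 17 fell with a median change of 0.03, where 24.6% of all genes rose and 17.5% fell. These genes answer to several transcription factors, and no activity of NF-kB protein was measured.

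**Figure D4:**
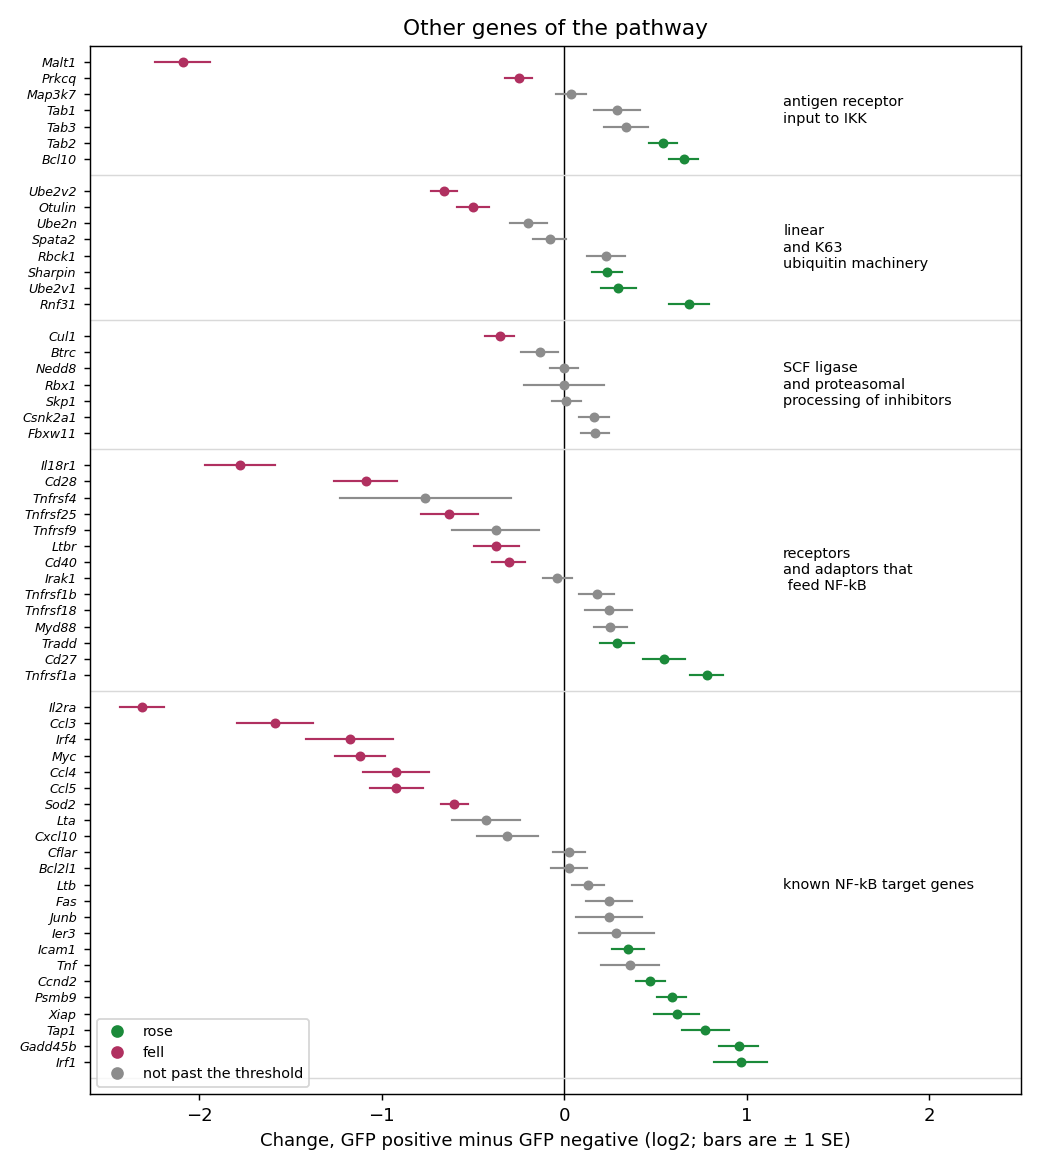
Change in log2 units, GFP positive minus GFP negative, of the 59 tested genes in 5 lists of other pathway genes, with bars of 1 SE. Points are green where a gene rose, red where it fell and grey where it did not pass, and each list but that of the SCF ligase holds both red and green points. Malt1 at -2.09 and Il2ra at -2.31 lie lowest.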

How the data were processed

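Total RNA of 6 sorted samples was hybridised to 1 array each. The authors deposited log2 signal values for 45101 probe sets, made with Affymetrix Expression Console per the submitters' processing notes. The log2 unit was read from the values, and the sources used here do not name the summarisation, background correction or normalization. No detection calls were used.

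Values were used as deposited. The probe set annotation gives 1 symbol to 34945 probe sets, several to 932 and none to 9160 (64 are controls). Each gene was represented by its brightest probe set, and genes whose mean fell under the 40th percentile (1.27) were not tested. A two-sided moderated test on group alone was made with limma 3.58.1 (R 4.3.3), and p-values were adjusted over 13194 genes by Benjamini-Hochberg. On simulated data with 200 of 13194 genes changed, 38% of genes changed by 0.5 and 82% of those changed by 1 (log2) were recovered. Of the calls there, 6.98% were false. In the deposited data a far larger share was called, 42.1%, which moves the adjusted threshold, so recovery here may differ. The members, lists and tests were chosen with earlier results of these data known. Every member is named. From each list at most 5 genes are named by lowest p, and others (Map3k7, Tab3, Rbck1, Fbxw11, Skp1, Tnfrsf4, Tnfrsf9, Tnfrsf18, Myd88, Cd40, Ltbr, Tradd, Tnf, Lta and the marker genes) were picked with their values in view.

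The labels state no pairing, but same-numbered samples deviated together (correlations across genes 0.47, 0.35 and 0.25, against -0.33 to 0.04 for other pairs). Deviations were taken from the mean of each group, which pulls other pairs below 0 where same-numbered ones are positive. The main test, on group alone, does not use such a pairing. Alternatives were other scalings, 32 added in linear units, other dim filters and probe sets, a robust prior, the replicate block and samples left out. The number of arrays limits the precision. Sequences are from RefSeq (GRCm38.p6).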

Additional observations from a re-analysis of the deposited data

How the results depend on the processing

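The members that rose numbered 13 to 20 over 16 alternatives, within 1.5 times the 17 as deposited, and 12 of the 18 called members passed in every one that gave them a value (Birc3 and Nfkbib had none with gene-specific probe sets first). Over the same alternatives 15.7% to 33.1% of all genes rose. The number of members that fell went from 1 to 3 with quantile normalization (Tnip2, Nfkbib and Nfkbiz) and to 2 with median centring. It was 1 to 2 when single samples were left out. Of all genes, 21% and 28.9% fell with quantile normalization and median centring, against 17.5% as deposited. Map3k8, which did not pass, reversed from 0.09 to -0.049 and -0.023 with those scalings, and ranged from -0.0085 to 0.17 with single samples left out, below 0 without GFP negative 2 or GFP positive 2. For all genes, median centring gave 3819 falls against 2309 and moved the median change from -0.02 to -0.14, where the members' median was 0.33. The share of calls that were higher went from 58.4% to 48.9% (quantile) and 39.6% (median). Without GFP negative 1 and GFP positive 3 together 2074 genes rose and 1251 fell. With the replicate block 20 members rose and 1 fell, with Rel, Relb and Traf6 added, and no other member's call changed. There 25.5% of all genes rose and 18.8% fell. With dim genes under the 60th percentile left out, 33.1% of all genes and 19 of 28 members rose. The cause of these shifts was not tested. Signals near the TrpnX level, and the 3 arrays a group, limit small changes.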
